A study of Mus musculus with 36 samples.

Results

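The genes described are those of glycolysis and of glucose and lactate transport, in differentiating female mouse embryonic stem cells (mESCs). The set was a list of 35 symbols, listed by function. Of the 35 symbols, 34 had an entry among the 25965 genes of the deposited expression table. The symbol Pkm2 had none, and the pyruvate kinase gene was read from its entry Pkm. A gene was tested when it reached 1 read per 1000000 reads (RPM) in at least 4 of the 36 libraries, which 33 of the 34 members and 14612 of all genes did. The member left out was Hkdc1, a hexokinase-like gene with 1 read in 1 library.

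The cells were Xmas mESCs, female lines of strain C57/Bl6 whose X chromosomes are told apart by fluorescent reporters, GFP on one and mCherry on its partner, each inserted at the X-linked gene Hprt. The lines were kept as suspension cultures in 2i and LIF, which hold mESCs in the naive state, and were let attach to gelatin-coated plates before differentiation. They were then weaned in steps into a serum medium without LIF (DME HiHi), and RNA was collected on each of 9 days, day 0 to day 8, with 4 libraries a day. The 4 libraries of a day came from 2 lines, X14 and X18, and carried the word double or single in their names. Replicates 1 to 4 were X14 double, X14 single, X18 double and X18 single on every day, and values listed for a day below stand in that order. The meaning of double and single is not given in the labels, so both words are used as names. All groups came from female lines of the same strain, and differed in day, line and label. The paper reports that mESCs positive for GFP or mCherry alone carried only the matching reporter allele. It uses the reporters to tell XX cells from XO cells, which lack an X chromosome. Whether the libraries named single held cells without the second X chromosome and its reporter was not tested. The study calls its replicates independent, while the labels do not say whether they were separate cultures, so the p-values measure the spread between these libraries only.

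Glycolysis splits glucose into pyruvate in the cytosol. Glucose enters through transporters of the Slc2a family, hexokinase traps it, phosphofructokinase commits it to the route, and pyruvate kinase makes pyruvate. Lactate dehydrogenase turns pyruvate into lactate, which leaves through monocarboxylate transporters of the Slc16a family, or the pyruvate dehydrogenase complex takes it into mitochondrial metabolism. Several steps have isoenzymes, products of separate genes that catalyse the same reaction with different kinetics or in different tissues. Mouse ES cells are known to lean more on glycolysis after leaving the naive state, and many of these genes are textbook targets of the hypoxia-inducible factor HIF1A.

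Levels are given as reads per kilobase of exon per 1000000 reads (RPKM), a scale that corrects for gene length and so allows levels to be compared between genes. Log2 changes are differences of mean log2 RPKM, with their standard error (SE), while changes written as a fold are ratios of mean RPKM. The 2 day 0 libraries of X14 went against their labels in the level of X-linked genes, as given with the label comparison. This touches no comparison between days that leaves the label out. It does touch counts of pairs of the same line and label, the replicate block, and settings with a replicate left out. Libraries held 612740 to 2445826 reads in genes, with a median of 1297944. The 8 naive markers listed (Pou5f1, Sox2, Nanog, Zfp42, Esrrb, Klf4, Tfcp2l1 and Tbx3) all had reads on day 0, and their summed level went from a mean of 1772 RPKM on day 0 to 209.9 RPKM on day 8. The 8 visceral endoderm markers summed to no more than 4.07 RPKM in any library. The 6 fibroblast markers summed to 1.28 RPKM on day 0, 18.1 RPKM on day 5 and 6.34 RPKM on day 8, and Lum had no read on these 3 days. On day 8, 3 of the 5 tested fibroblast markers were called higher, Col1a1, Col1a2 and Postn, against 23.9% of all genes. Col1a2 went from no read in any day 0 library to 65, 108, 29 and 22 reads, and Postn from no read to 24, 0, 3 and 2. These genes, Col1a2 and Postn, passed the filter only through late days, where they are high. Thy1, not called on day 8, had 16, 52, 32 and 98 reads on day 5 and 0, 2, 3 and 1 on day 8. In bulk RNA, fewer cells of a type and less RNA per cell cannot be told apart, and the part that a changing mix of cells had in the results was not tested.

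Some entries need care. The deposited Gapdh entry held 3 to 37 reads per library, and 55.5% of the 75-base words of its transcripts, the length of a read, occurred in other annotated genes. The same share was 44.3% for Eno1, 40.6% for Pgam1, 22.0% for Pfkfb2, 19.9% for Pdhb, 14.4% for Bnip3, 14% for Pkm and 12.6% for Ldhb, so reads of these genes could have been split or lost, and their levels are uncertain. The Pkm entry pools the splice forms of pyruvate kinase. Pgm1 and Pgm2 are named here as the table names them. Its Pgm1 lies at chr5:64092936-64128355 and its Pgm2 at chr4:99929414-99987294 (mm10), positions that GENCODE M21 gives to Pgm2 and Pgm1. Whether counting used the strand is not stated, and Pfkm, Pfkp, Tpi1 and Pgm2 overlap another annotated gene.

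Over the 9 days, 29 of the 33 tested members varied (moderated F test in limma, adjusted p under 0.05 over all genes tested), against 65.2% of all genes. The 4 that did not pass were Hk1 (adjusted p = 0.217), Gapdh (0.456), Pgam1 (0.0513) and Dlat (0.542). A gene was called changed between 2 days when its Benjamini-Hochberg adjusted p over all genes tested was under 0.05 and its level differed at least 2-fold. No member was called on day 1 against day 0 by limma, with 1 at an unadjusted p under 0.05, and 0.0684% of all genes were called. On day 2, 5 members were called, all higher, against 2.96% of genes. These were Slc2a1, Hk2, Pfkl, Slc16a3 and Pgm2. Day 3 added Pfkfb3 and Pdk1 for 7 members, all higher, against 8.89% of genes.

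By day 4, 11 members were higher and 2 were lower than on day 0, against 12.2% and 6.4% of genes. The median change of the 33 members was 0.66 on the log2 scale, and 0.12 over all genes tested. The counts of days 5, 6 and 7 were 14, 13 and 19 members, where 26.8%, 33.4% and 35.4% of genes were called. On day 8, 12 members were higher and 3 lower, against 23.9% and 11.1% of genes. The members' median change was then 0.70, and that of all genes was 0.23. Scaled to the 75th percentile of each library these medians were 0.50 and 0.02, and after quantile normalization 0.72 and -0.09. Replicate 3 had the lowest day 0 level for many members, for instance 389 RPKM for Pkm against 691 RPKM or more in the other libraries. Without replicate 3 the counts of days 2, 3, 4 and 5 were 0, 4, 8 and 8, while leaving out replicate 1 gave 10 members on day 2, and leaving out replicate 4 gave 1.

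**Figure D1:**
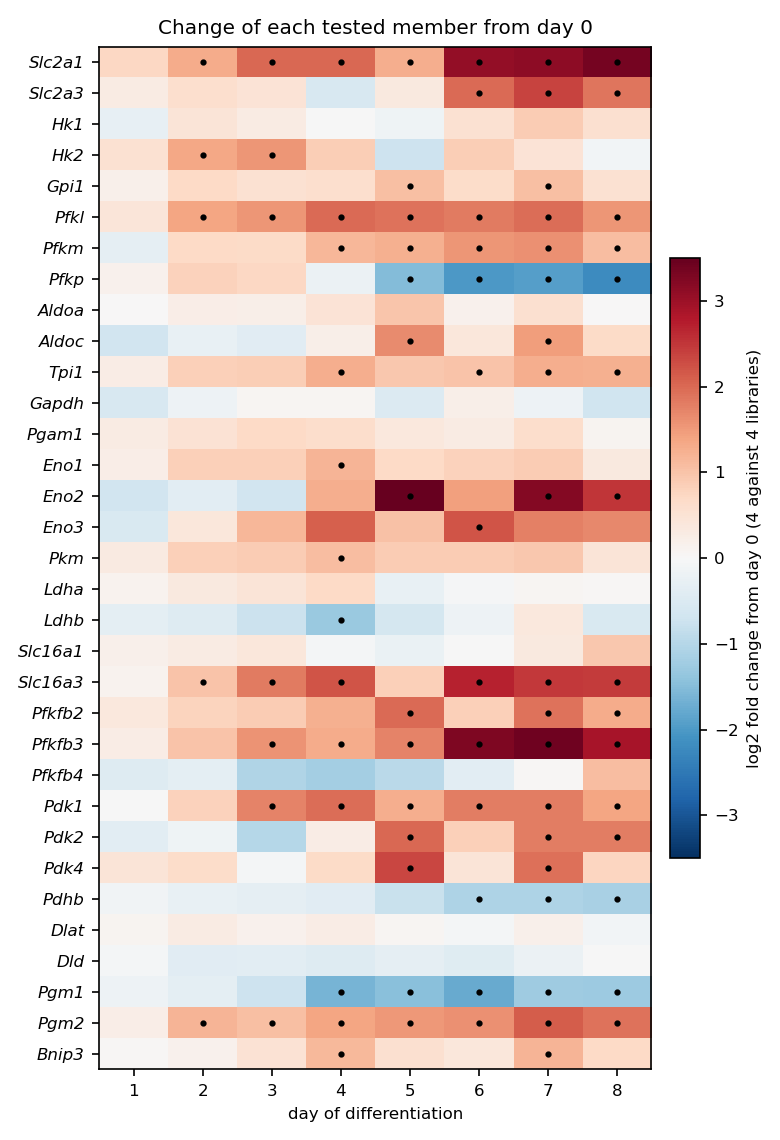
Log2 fold change from day 0 (colour) of each of the 33 tested members (one per line) on days 1 to 8, from the 4 libraries of a day against the 4 of day 0, with a black dot where the change was called. Slc2a1, Pfkl, Pgm2 and Pfkfb3 are called higher on day 5 and every later day, Pgm1 is called lower from day 4, and Pfkp from day 5.

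The sum of RPKM over a step shows the level of the route without a test. The 2 glucose transporters summed to 303 ± 138 RPKM on day 0 (mean ± SD, n = 4). Their sums of days 4, 5, 6 and 8 were 569 ± 45.3, 489 ± 103, 1611 ± 129 and 1763 ± 97.8 RPKM. The 17 member enzymes from hexokinase to lactate dehydrogenase, Gapdh left out, summed to 3027 ± 673, 4932 ± 383 and 3632 ± 949 RPKM on days 0, 4 and 8. Phosphoglycerate kinase (Pgk1) is no member and is not in this sum, and Hkdc1 is counted though nearly without reads. The transporter sums of days 0 and 8 did not overlap, with a highest library of 455 RPKM on day 0 and a lowest of 1670.3 RPKM on day 8. The enzyme sums of the same days overlapped, at 2030.1 to 3487 and 2482 to 4778 RPKM. On day 0 the highest mean levels of any member were those of Aldoa (945 RPKM), Pkm (769 RPKM) and Ldha (575 RPKM). On day 8 that of Slc2a1 (1141 RPKM, from 119.8 RPKM on day 0) came first, ahead of Pkm (1022 RPKM) and Aldoa (953 RPKM).

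The promoters of Slc2a1, Slc16a3 and Pfkfb3, the members with the largest rises by day 8 among those with a read in all 36 libraries, and of Pfkp, with the largest fall, are shown because these 4 genes carry the main changes. Each line gives the 250 bases before the annotated start of RefSeq, read 5′ to 3′ on the gene's strand (GRCm38.p6, the mm10 assembly). Capitals mark ACGTG, a form of the core of the hypoxia response element that HIF factors bind, on either strand, and CACGTG, the E-box that contains it.
Slc2a1, chr4:119108495-119108744, + strand: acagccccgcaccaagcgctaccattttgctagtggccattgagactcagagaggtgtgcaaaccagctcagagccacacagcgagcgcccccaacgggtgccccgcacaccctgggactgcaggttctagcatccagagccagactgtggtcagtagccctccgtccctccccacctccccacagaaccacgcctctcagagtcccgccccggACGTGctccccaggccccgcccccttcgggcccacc
Slc16a3, chr11:120948817-120949066, + strand: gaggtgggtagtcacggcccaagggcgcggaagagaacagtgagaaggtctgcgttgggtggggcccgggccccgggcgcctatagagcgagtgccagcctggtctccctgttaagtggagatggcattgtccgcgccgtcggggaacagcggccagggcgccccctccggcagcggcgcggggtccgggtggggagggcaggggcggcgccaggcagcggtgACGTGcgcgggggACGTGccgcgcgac
Pfkfb3, chr2:11502091-11502340, - strand: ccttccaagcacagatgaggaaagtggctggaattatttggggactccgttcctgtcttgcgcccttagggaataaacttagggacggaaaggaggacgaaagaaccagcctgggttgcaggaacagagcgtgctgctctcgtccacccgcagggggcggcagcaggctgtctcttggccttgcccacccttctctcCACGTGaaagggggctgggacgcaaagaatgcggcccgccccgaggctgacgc
Pfkp, chr13:6648772-6649021, - strand: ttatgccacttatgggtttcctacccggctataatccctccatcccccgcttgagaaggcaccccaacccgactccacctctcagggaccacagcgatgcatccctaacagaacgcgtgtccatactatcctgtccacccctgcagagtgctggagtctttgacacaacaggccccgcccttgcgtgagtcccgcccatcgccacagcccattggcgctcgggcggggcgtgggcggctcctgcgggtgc
The windows of Slc2a1, Slc16a3 and Pfkfb3 hold a match to ACGTG and that of Pfkp holds none. The Slc16a3 window lies inside the span of the deposited Slc16a3 entry, chr11:120948480-120960868. Its matches are thus before the RefSeq start used here and after the start of that entry. GCGTG, the other form of the core, was neither marked nor counted, and the Pfkp window holds it. Over windows from 250 bases before to 50 after a start, 19 of the 33 members found in the RefSeq table held ACGTG on either strand in at least 1 promoter (57.6%), against 21.8% of 27025 genes. By promoter this was 22 of 48 (45.8%), against 19.6% of 32851. CACGTG was present in 7 of the 33 members (21.2%) and in 8.09% of genes. By call on day 8, 7 of 11 higher members held ACGTG, as did 2 of 3 lower and 10 of 18 not called. A match is a description of the letters, not a bound site, and Slc2a3 was not in the table.

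Slc2a1 had the largest rise by day 8 of any member tested. Slc2a1 (chr4:119108711-119137330) encodes GLUT1, the widely expressed glucose transporter, and Slc2a3 (chr6:122727809-122801640) encodes GLUT3, a transporter of higher affinity. Slc2a1 stood at 130.4, 191, 71.7 and 86.2 RPKM on day 0, at 489, 469, 448 and 407 RPKM on day 4, and at 1290.0, 1067, 1165 and 1042 RPKM on day 8. Every library of day 4 lay above every library of day 0, and every library of day 8 above every library of day 4. The mean rose 3.78-fold by day 4 and 9.53-fold by day 8 (log2 3.35, SE 0.20, adjusted p = 5.2e-15).

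Between these days the course was not smooth. Slc2a1 held 228, 318, 266 and 265 RPKM on day 5, a log2 difference of -0.76 from day 4 that passed the p threshold (adjusted p = 0.0087) and not the 2-fold limit. It then rose by 1.82 on the log2 scale from day 5 to day 6 (adjusted p = 1.79e-07). All 4 day 5 libraries lay below those of days 4 and 6.

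Slc2a3 moved at other times. Its levels were 254, 264, 104 and 111 RPKM on day 0, 126, 86.9, 145 and 104 RPKM on day 4, and 498, 823, 505 and 662 RPKM on day 8. Days 0 and 4 overlapped, and day 8 lay above both. It was the 1 member called between days 3 and 4, when it fell by 1.04 on the log2 scale (adjusted p = 0.0225), and 5.03% of genes were called in that step. This call was lost without replicate 1, 2 or 4. It rose by 1.66 from day 5 to day 6 (adjusted p = 0.000144), and on day 8 was 3.40-fold above day 0 (log2 1.87, SE 0.29, adjusted p = 2.65e-06).

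The lactate exporter dipped on day 5 as well. Slc16a3 (chr11:120948480-120960868) encodes MCT4, the low-affinity lactate exporter of glycolytic cells, and Slc16a1 encodes MCT1, which carries lactate and pyruvate either way. Slc16a3 stood at 20.3, 21.9, 8.50 and 16.2 RPKM on day 0 and at 79.2, 78.4, 64.9 and 69.8 RPKM on day 4. On day 5 it was at 22.5, 36.7, 23.5 and 32.5 RPKM, and on day 8 at 70.6, 94.3, 81.8 and 98.9 RPKM. Day 5 lay above day 0 and below days 4 and 8 in all libraries. It rose 4.37-fold by day 4 (adjusted p = 1.57e-09), fell by 1.37 on the log2 scale from day 4 to day 5 (adjusted p = 3.24e-05), rose by 1.85 from day 5 to day 6 (adjusted p = 3.75e-07) and was 5.16-fold above day 0 on day 8 (log2 2.44, SE 0.21, adjusted p = 4.12e-11).

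Slc16a1 was at 66.3, 78.2, 44.8 and 45.9 RPKM on day 0, between 50.3 and 63.4 RPKM on day 4, and at 145, 121, 98.9 and 86.8 RPKM on day 8. The 4 libraries of day 8 lay above those of day 0. Its change by day 8, a log2 difference of 0.95 (adjusted p = 6.87e-05), was just short of the 2-fold limit, while against day 4 it was called higher (log2 1.01, SE 0.18, adjusted p = 5.27e-05).

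**Figure D2:**
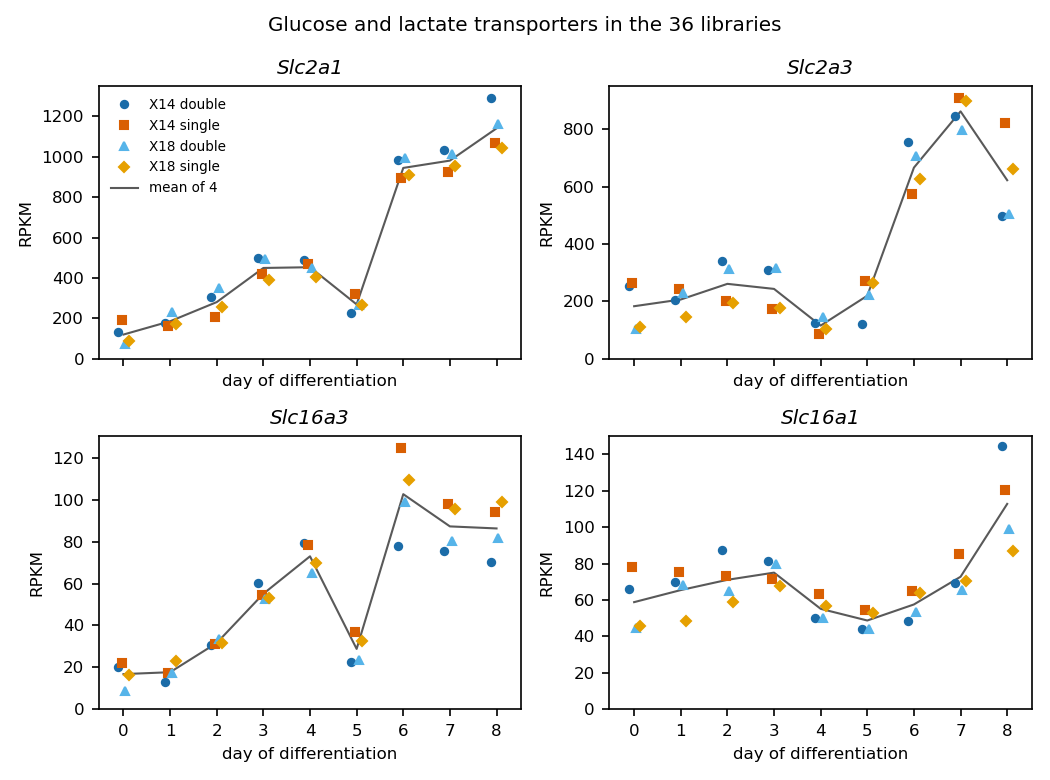
RPKM of the 2 glucose transporters (Slc2a1, Slc2a3) and the 2 lactate transporters (Slc16a3, Slc16a1) against day of differentiation, one point per library by line and label, with a line through the mean of 4. Slc2a1 and Slc16a3 climb to day 4, drop on day 5 and climb again on day 6, where Slc2a3 also steps up.

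At hexokinase, the trapping step, Hk2 was called higher early and not late. Hk2, the inducible hexokinase, stood at 77.0, 38.6, 14.1 and 18.3 RPKM on day 0, at 83.9, 96.9, 80.6 and 81.9 RPKM on day 3 and at 7.19, 30.2, 19.4 and 24.4 RPKM on day 5. Day 3 lay above every library of day 0, and days 0 and 5 overlapped. It was called higher on days 2 and 3 (log2 1.36 and 1.53), fell by 1.59 from day 4 to day 5 (adjusted p = 0.00293) and rose by 1.57 from day 5 to day 6 (adjusted p = 0.00381). By day 8 the log2 difference from day 0 was -0.10 (adjusted p = 0.851), and it was 0.38 without replicate 1, whose day 0 level was the highest. Hk1, the constitutive form, averaged 8.98 RPKM on day 0 and 11.0 RPKM on day 8 and did not pass the F test. Gpi1, which turns glucose 6-phosphate into fructose 6-phosphate, differed by 0.53 on day 8 (adjusted p = 0.0251), under the 2-fold limit, and was called higher on days 5 and 7 (log2 1.06 and 1.05).

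Phosphofructokinase, the committing step, changed its isoform balance. Pfkl encodes the liver-type subunit, Pfkp the platelet-type and Pfkm the muscle-type, and the active enzyme is a tetramer of them. Pfkp (chr13:6579768-6648777) stood at 61.3, 54.9, 31.2 and 34.3 RPKM on day 0, at 49.0, 25.5, 54.2 and 29.1 RPKM on day 4 and at 12.9, 9.52, 10.5 and 6.08 RPKM on day 8. All libraries of day 8 were below all of days 0 and 4. It fell by 1.31 on the log2 scale from day 4 to day 5 (adjusted p = 0.000743), and the mean of day 0 was 4.66 times that of day 8 (log2 change -2.21, SE 0.27, adjusted p = 3.18e-08).

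Pfkl went the other way, from 71.9, 55.0, 17.1 and 32.8 RPKM on day 0 to 131, 172, 142 and 172 RPKM on day 4 and 87.6, 143, 94.1 and 131 RPKM on day 8. Neither later day overlapped with day 0. The rises were 1.99 by day 4 (adjusted p = 4.63e-06) and 1.53 by day 8 on the log2 scale (SE 0.30, adjusted p = 7.87e-05). Pfkm stood at 21.7, 13.6, 5.21 and 8.95 RPKM on day 0 and at 17.9, 23.3, 23.8 and 27.4 RPKM on day 8, with overlapping groups. Its call on day 8 (log2 1.08, SE 0.37, adjusted p = 0.0168) was lost in 6 of 14 alternative settings.

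The ratio of the 2 main isoforms within a library does not depend on how libraries were scaled. The ratio of Pfkp to Pfkl was 1.13 on day 0 (geometric mean of 4) and 0.0842 on day 8, and its log2 value went from 0.17 ± 0.48 to -3.57 ± 0.74 (SD, n = 4). The highest day 8 library was at -2.77 and the lowest day 0 library at -0.23. With 4 libraries against 4 an exact permutation test cannot give a p below 0.0286, the value found here, and after adjustment over the 14 pairs tested it was 0.08.

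The gene set also holds regulators of this step. Pfkfb3 (chr2:11471430-11502101) makes fructose 2,6-bisphosphate, the strongest allosteric activator of phosphofructokinase. It stood at 4.34, 4.02, 2.05 and 1.34 RPKM on day 0, at 7.27, 6.90, 6.41 and 5.50 RPKM on day 4, at 27.2, 24.2, 28.9 and 20.8 RPKM on day 6 and at 19.9, 21.0, 18.6 and 18.4 RPKM on day 8. The libraries of days 0, 4 and 8 did not overlap. Pfkfb3 rose by 1.53 from day 5 to day 6 (adjusted p = 0.00106), and was 6.63-fold above day 0 on day 8 (log2 2.89, SE 0.31, adjusted p = 4.45e-09).

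The other forms were near the limit of detection. Pfkfb2 had 27, 15, 1 and 5 reads on day 0 and 34, 22, 10 and 7 reads on day 8, at 1.30, 0.723, 0.107 and 0.444 RPKM and at 1.84, 1.11, 0.905 and 0.866 RPKM. The groups overlapped, and its call on day 8 (log2 1.29, adjusted p = 0.0481) was lost in 9 of 14 alternatives. Pfkfb4, with 0 to 8 reads per library from day 1 to day 7, was called higher on day 8 against day 4 (log2 2.26, adjusted p = 0.00484) and not against day 0 (adjusted p = 0.154). The change of Pfkfb4 from day 4 depends on the authors' rule of writing 0.9 read for none, as X14 double had no read of it on day 4. Fold changes at so few reads are no bounds. Tigar, which breaks down fructose 2,6-bisphosphate and belongs to a longer list of related genes, fell from 39.6 ± 9.66 to 6.48 ± 0.396 RPKM between days 0 and 8 (SD, n = 4, log2 change -2.58, SE 0.19, adjusted p = 7.12e-13).

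Of the enzymes in the middle of the route, Tpi1, which interconverts the triose phosphates, was called higher on both day 4 and day 8. It stood at 226, 213, 104 and 164 RPKM on day 0, at 387, 381, 409 and 465 RPKM on day 4 and at 312, 392, 434 and 476 RPKM on day 8. Both later days lay above day 0 in every library, with log2 changes of 1.27 (adjusted p = 9.94e-06) and 1.24 (SE 0.20, adjusted p = 5.77e-06).

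Eno1, the common enolase, and Pkm were called higher on day 4 and not on day 8. Eno1 went from 109, 111, 58.1 and 95.2 RPKM on day 0 to 195, 205, 196 and 224 RPKM on day 4 (log2 1.18, SE 0.21, adjusted p = 5.69e-05), and to 73.3, 133, 109 and 162 RPKM on day 8 (log2 difference from day 0 of 0.34, adjusted p = 0.179). Pkm went from 1120.3, 875, 389 and 691 RPKM to 1375, 1623, 1455 and 1662 RPKM on day 4 (log2 1.09, SE 0.25, adjusted p = 0.00121), and was at 644, 1169.7, 952 and 1323 RPKM on day 8 (0.46, adjusted p = 0.124). For both genes the day 4 libraries lay above those of day 0 and the day 8 libraries overlapped with them. Neither gene was called between days 4 and 8.

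Both aldolases had their highest mean level on day 5. Aldoa, the main aldolase, was at 1273, 1144, 1369 and 1384 RPKM on day 4, at 2032, 1806, 1958 and 1504 RPKM on day 5 and at 954, 920.1, 1174 and 1055 RPKM on day 6, with no overlap between day 5 and its neighbours. The step from day 5 to day 6 differed by -0.83 on the log2 scale (adjusted p = 0.00438), under the 2-fold limit. Aldoc, the brain form, stood at 9.27, 10.9, 10.4 and 16.8 RPKM on day 4, at 33.9, 29.8, 32.5 and 31.3 RPKM on day 5 and at 10.6, 13.996, 12.3 and 16.5 RPKM on day 6. Its 4 day 5 libraries lay close together and above all others of these 3 days. It rose by 1.47 from day 4 to day 5 (adjusted p = 0.00335) and fell by 1.27 from day 5 to day 6 (adjusted p = 0.0118). By day 8 the log2 differences from day 0 were 0.01 for Aldoa and 0.67 for Aldoc (adjusted p = 0.965 and 0.109), and that of Aldoa was below 0 under 4 of the alternative settings.

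Eno2 and Eno3, the neuronal and the muscle enolase, were minor forms. Eno2 had 5, 1, 0 and 2 reads on day 0 (0.492, 0.0984, 0 and 0.363 RPKM) and 12, 7, 13 and 6 reads on day 8 (1.32, 0.723, 2.40 and 1.52 RPKM). Its day 8 libraries lay above those of day 0, and the change was called (log2 2.496, SE 0.68, adjusted p = 0.00333), with reads too few to size it. Like Aldoc it was called higher from day 4 to day 5 (log2 2.26, adjusted p = 0.0205) and lower from day 5 to day 6 (-2.11, adjusted p = 0.0349). The 6 neural markers summed to 39.6 to 61.1 RPKM on day 0, 14.4 to 68.5 RPKM on day 5 and 12.99 to 19.3 RPKM on day 8, and Sox1 and Neurog2 had no read on the last 2 of these days. Of the 5 tested, Nes was called higher on day 8, and Tubb3 and Map2 lower. Nes had 49, 38, 8 and 11 reads on day 0 and 34, 270, 138 and 563 reads on day 5. Tubb3 had 178, 228, 68 and 92 reads on day 0 and 10, 75, 24 and 122 reads on day 5. These read counts are not scaled for library size. Of the 5 tested neural markers, 1 was called higher and 1 lower on day 5 against day 0, where 26.8% of genes were called. The 8 muscle markers summed to 8.29 to 10.6 RPKM on day 0 and 20.8 to 36.5 RPKM on day 5. On day 8 they summed to 9.72 to 23.9 RPKM, and Myod1, Ckm and Tnnt2 had no read. Acta1 was called higher on day 8 and Myl7 lower. Acta1 had no read in any library of days 0 to 4, and passed the filter only through later days, where it is high. The part of neural or muscle cells in the levels of Eno2, Eno3 and Aldoc was not tested. Eno3 (chr11:70657202-70662513) was at 6.39, 1.07, 1.77 and 7.36 RPKM on day 0 and at 2.99, 10.6, 13.5 and 21.2 RPKM on day 8, with overlapping groups. Its log2 difference of 1.67 did not pass (adjusted p = 0.0939), and did with the replicate as a block (adjusted p = 0.0152). Of Gapdh and Pgam1, neither was called on day 4 or day 8.

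**Figure D3:**
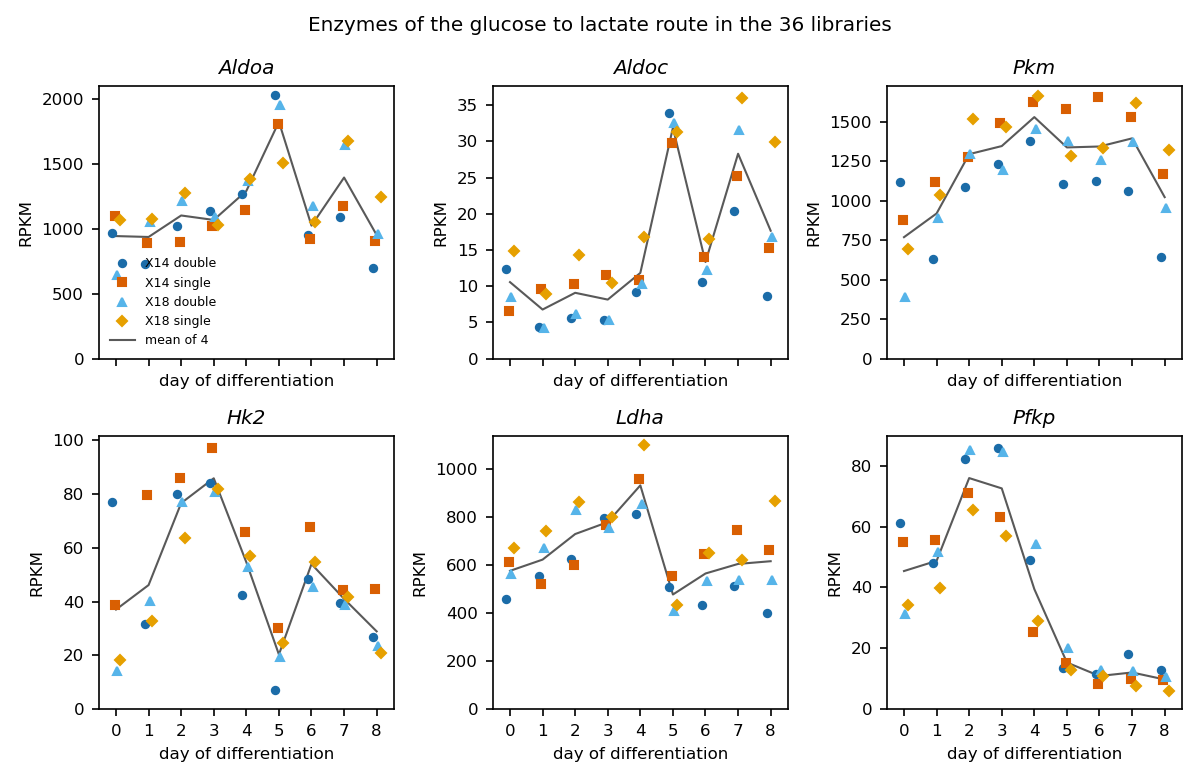
RPKM of 6 enzymes of the route from glucose to lactate (Aldoa, Aldoc, Pkm, Hk2, Ldha, Pfkp) against day of differentiation, one point per library by line and label, with a line through the mean of 4. The aldolases have their highest mean on day 5, where Hk2 and Ldha dip, and stand higher on day 7 than on day 6. Pfkp stays low from day 5 on.

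Lactate dehydrogenase is a tetramer of A and B subunits. Ldha encodes the subunit that favours lactate formation, and Ldhb the one that favours pyruvate. Ldhb was at 156, 125, 119 and 300.1 RPKM on day 0, at 59.1, 65.5, 56.7 and 87.8 RPKM on day 4 and at 44.6, 115, 114 and 273 RPKM on day 8. Day 4 lay below day 0 in every library, a called fall (log2 -1.30, SE 0.35, adjusted p = 0.00673), and day 8 overlapped with day 0. Ldha was at 458, 613, 561 and 668 RPKM on day 0 and at 811, 958, 854 and 1099 RPKM on day 4. Its groups did not overlap either, with a log2 difference of 0.70 (adjusted p = 0.00964) that was under the 2-fold limit. It differed by -0.97 from day 4 to day 5 (adjusted p = 0.000952), also under the limit. The log2 ratio of Ldhb to Ldha was -1.81 ± 0.55 on day 0, -3.80 ± 0.12 on day 4 and -2.40 ± 0.62 on day 8 (SD, n = 4), and the libraries of days 0 and 8 overlapped (exact permutation p = 0.171).

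At the entry to mitochondrial metabolism, Pdk1 rose and Pdhb fell. Pdk1 encodes a kinase that switches off the pyruvate dehydrogenase complex. It stood at 9.87, 9.05, 7.27 and 10.3 RPKM on day 0, at 25.8, 43.0, 28.4 and 47.0 RPKM on day 4 and at 18.3, 27.2, 21.1 and 29.2 RPKM on day 8, both later days above day 0 in every library. The rises were 1.95 by day 4 (SE 0.24, adjusted p = 1.69e-07) and 1.38 by day 8 (adjusted p = 1.71e-05). Pdhb, the beta subunit of the first enzyme of the complex, was at 84.7, 127, 130.1 and 110.4 RPKM on day 0 and at 41.3, 40.6, 64.5 and 62.5 RPKM on day 8, without overlap. It fell by 1.13 on the log2 scale (SE 0.21, adjusted p = 4.39e-05), a call lost in 2 of 14 alternatives.

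The other kinases were sparse. Pdk2 had 13, 5, 0 and 3 reads on day 0 (1.90, 0.732, 0 and 0.810 RPKM) and 8, 15, 9 and 17 reads on day 8 (1.31, 2.30, 2.48 and 6.39 RPKM). The groups overlapped, and its call on day 8 (log2 1.80, SE 0.68, adjusted p = 0.0312) was lost in 5 of 13 alternatives. Pdk4 was called on days 5 and 7 (log2 2.35 and 1.94) and not on day 8 (0.74, adjusted p = 0.392). Dlat and Dld, the acetyltransferase and the shared dihydrolipoyl dehydrogenase of the complex, differed by -0.10 and -0.02 on day 8 (adjusted p = 0.706 and 0.911), with signs that turned under other settings. The 3 complex members summed to 207 ± 30.4 RPKM on day 0 and 142 ± 19.9 RPKM on day 8, and the 3 kinases to 11.2 ± 3.11 and 28.6 ± 6.60 RPKM (SD, n = 4).

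Phosphoglucomutase links glucose 6-phosphate to glycogen, and the 2 genes listed under this name moved in opposite directions. Whether the products of both serve this step in these cells was not tested. Pgm2 stood at 38.8, 27.4, 5.98 and 16.1 RPKM on day 0, at 36.8, 50.1, 42.0 and 60.4 RPKM on day 4 and at 57.2, 72.0, 70.02 and 70.9 RPKM on day 8. Day 8 lay above day 0 in every library, and day 4 overlapped with it. It rose by 1.91 (SE 0.33, adjusted p = 1.98e-05). Pgm1 stood at 46.8, 51.3, 22.9 and 21.9 RPKM on day 0, at 8.76, 10.9, 12.7 and 10.7 RPKM on day 4 and at 15.1, 16.0, 13.02 and 10.9 RPKM on day 8, so that both later days lay below day 0. It fell by 1.63 by day 4 (adjusted p = 2.74e-05) and by 1.28 by day 8 (SE 0.27, adjusted p = 0.00025). The ratio of Pgm2 to Pgm1 went from 0.54 to 4.93, a log2 change of 3.19 in the same direction in 4 of 4 pairs. Bnip3, a mitophagy receptor outside the route, was at 31.7, 60.1, 84.9 and 63.3 RPKM on day 0 and at 113, 102, 134 and 149.96 RPKM on day 4, without overlap (log2 1.12, SE 0.29, adjusted p = 0.00403). On day 8 its difference of 0.70 was under the 2-fold limit (adjusted p = 0.0446).

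Over the whole set, 5 of 14 isoenzyme pairs had day 0 and day 8 ratios that did not overlap. How often the ratio of 2 other genes separates in this way was not computed, so the count has no share to stand against. Between these days 23.9% of all genes were called higher and 11.1% lower. Each of the 5 had an exact permutation p of 0.0286, the smallest possible, which restates the lack of overlap, and an adjusted p of 0.08. None of the 14 passed the adjusted threshold of 0.05, while 5 were at an unadjusted p under 0.05. Besides Pfkp to Pfkl and Pgm2 to Pgm1, these were Slc2a3 to Slc2a1, whose log2 ratio went from 0.58 ± 0.26 to -0.90 ± 0.47 (SD, n = 4), Slc16a3 to Slc16a1, from -1.86 ± 0.38 to -0.37 ± 0.51, and Eno2 to Eno1, from -8.54 ± 1.08 to -6.39 ± 0.92. The Slc2a pair had its lowest mean ratio on day 4, at -1.996 ± 0.33, and the Slc16a pair stood at 0.41 ± 0.17 on day 4, so neither moved in one direction over the days. The ratio of Eno2 to Eno1 rests on 0 to 13 reads of Eno2 per library on these 2 days.

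**Figure D4:**
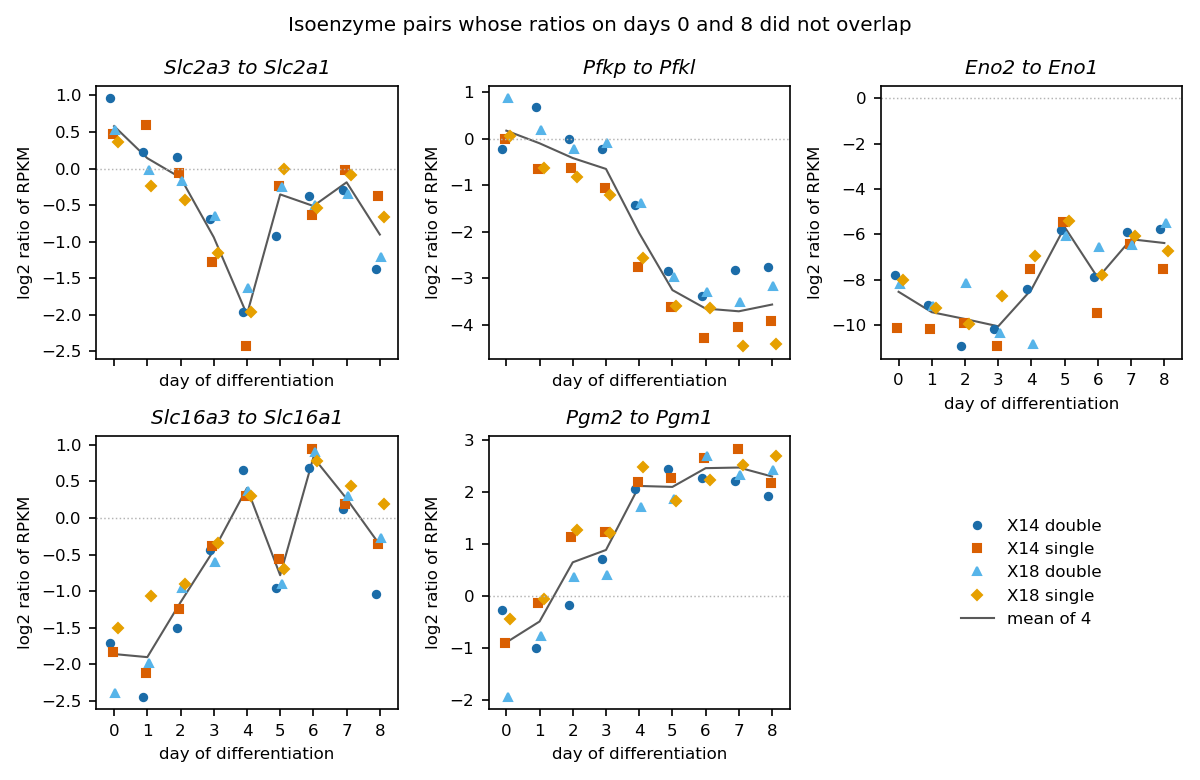
Log2 ratio of RPKM of the first to the second gene of a pair against day, one point per library by line and label, with a line through the mean of 4 and a dotted line at equal levels, for the 5 pairs whose day 0 and day 8 libraries did not overlap. Pfkp to Pfkl falls from 0.17 to -3.57, and Pgm2 to Pgm1 rises from -0.89 to 2.30 and crosses equal levels.

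From one day to the next, the steps into days 5 and 6 held most of the calls, while the median change of the 33 members was larger in other steps. That median was 0.40 into day 2 and -0.43 into day 8, where the medians of all genes were 0.08 and -0.01, and -0.14 and 0.06 into days 5 and 6. In the steps into days 2 and 3, no member was called by limma (14 and 3 at an unadjusted p under 0.05), where 0.0342% and 0.185% of genes were. From day 4 to day 5, 2 members were called higher and 3 lower, against 4.83% and 5.78% of genes, with 14 members at an unadjusted p under 0.05. Aldoc and Eno2 rose, and Hk2, Pfkp and Slc16a3 fell. From day 5 to day 6, 5 were called higher and 2 lower, against 7.14% and 2.59% of genes, with 12 at an unadjusted p under 0.05. The 5 were Slc2a1, Slc2a3, Hk2, Slc16a3 and Pfkfb3, and the 2 were Aldoc and Eno2. Of the last 2 steps, day 6 to day 7 and day 7 to day 8, neither had a called member (6 and 7 at an unadjusted p under 0.05), with 0.89% and 0.438% of genes called. With the replicate as a block, 1 member was called between days 6 and 7, and that was Aldoc. From day 4 to day 8, 5 members were higher and 1 lower, against 15.7% and 9.01% of genes, namely Slc2a1 (1.33), Slc2a3 (2.42), Slc16a1 (1.01), Pfkfb3 (1.58) and Pfkfb4 (2.26), and Pfkp (-1.995) on the log2 scale.

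A longer list of related genes, 37 of 49 of them tested, had 6 higher (16.2%) and 6 lower (16.2%) on day 8, against 23.9% and 11.1% of all genes, with a median change of -0.10 against 0.23. Bsg, the chaperone that MCT1 and MCT4 need at the cell surface, rose from 277 ± 29.3 to 661 ± 168 RPKM (SD, n = 4, log2 1.23, SE 0.18, adjusted p = 7.67e-07). Its day 8 libraries lay above those of day 0. Slc2a12 and Slc2a4, 2 further glucose transporters, averaged 3.08 and 1.02 RPKM on day 8, the latter with 0 to 2 reads per library on day 0 and 4 to 6 on day 8. Slc16a4 had no read on day 0 and 2 to 4 per library on day 8, around the 3-read floor, which stood at 1.04 to 3.90 RPM over the libraries and covers counting error only. The other 2 higher genes were G6pc3 (log2 1.48) and Pgls (1.46), of glucose 6-phosphate hydrolysis and the pentose phosphate route.

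Beside Tigar, the lower genes were Pdp2 (log2 -2.73), Rpe (-1.76), Pck2 (-1.60), Pdp1 (-1.34) and Pdhx (-1.05). Pdp1 and Pdp2 encode the phosphatases that switch the pyruvate dehydrogenase complex on, against the kinases such as Pdk1, and Pdhx its binding protein. Pdp2 went from 11.6 ± 2.74 to 1.85 ± 0.8004 RPKM (adjusted p = 3.23e-08) and Pdhx from 10.1 ± 1.43 to 4.88 ± 0.484 RPKM (adjusted p = 0.000267). Both were lower on day 8 in 4 of 4 pairs. Pck2 is the mitochondrial phosphoenolpyruvate carboxykinase, and Rpe an enzyme of the pentose phosphate route.

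A list of genes of the HIF pathway and its known targets had 29 tested genes, 7 of them members. Of the 22 that were not, 7 were higher (31.8%) and 2 lower (9.09%) on day 8, against 23.9% and 11.1% of all genes, with a median change of 0.39 against 0.23. P4ha2, a collagen prolyl hydroxylase, stood at 1.26, 0.445, 0.330 and 0.410 RPKM on day 0 and at 17.97, 10.6, 14.5 and 7.63 RPKM on day 8, without overlap (log2 4.52, SE 0.42, adjusted p = 1.6e-10). The others that rose were Ndrg1 (4.87), the oxygen-sensing prolyl hydroxylase genes Egln1 (2.95) and Egln3 (1.85), Ero1l (1.80) and P4ha1 (1.43) on the log2 scale. Adm rose as well, from 0 or 1 read per library to 7 to 18 reads. Epas1, which encodes HIF2A, fell by 2.06 and Stc2 by 1.76. Hif1a itself differed by 0.10. The methods give reduced oxygen for the maintenance of the cells and name none for the differentiation, and the part of oxygen was not tested.

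Between the libraries named double and single, 18 of each, the call held 1 member, Eno3, against 2.99% of genes. The 18 libraries of a label came from 2 lines, each sampled on 9 days. The fit counts the days of a line as replicates of the label, so its p-values do not measure a spread between lines. The same holds for the other label and line tests below. On days 1 to 8 Eno3 was lower in the double library of a line in 16 of 16 pairs, at means of 4.13 against 12.8 RPKM in X14 and 6.78 against 16.6 RPKM in X18. On day 0, double and single stood at 6.39 and 1.07 RPKM in X14 and at 1.77 and 7.36 RPKM in X18, so X14 was opposite. With day and line in the fit, the log2 difference was -1.57 (SE 0.26, adjusted p = 1.08e-04), and without day 0 it was -1.80 (adjusted p = 3.4e-07), where 4.54% of genes were called. Within X14 alone it was -1.43 (adjusted p = 0.181) and within X18 alone -1.71 (adjusted p = 0.0039). The call was lost without replicate 3 (adjusted p = 0.0501) or replicate 4 (adjusted p = 0.0851).

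The labels of X14 went against the rest on day 0. The difference between X-linked and autosomal genes, as a median log2 change from the day 0 mean, was -0.02 to 0.57 in the double libraries of days 1 to 8 and -0.63 to -0.21 in the single ones. On day 0 it was -0.78 in the library labelled X14 double, 0.51 in that labelled X14 single, 0.70 in X18 double and -0.47 in X18 single. Of the related genes listed beside the members, 5 tested ones lie on the X, and all 5 lay on the same side as the rest of the X. Their double minus single log2 differences were 0.37 for Pgk1 (adjusted p = 0.0495), 0.28 for Pdha1 (0.0185), 0.57 for Pdk3 (0.00145), 0.37 for G6pdx (0.0109) and 0.73 for Pfkfb1 (0.00984), each under the 2-fold limit. Pfkfb1 was added after its value was seen. None of the 34 members lies on the X chromosome.

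At an adjusted p under 0.05 with no fold limit, 12 members differed between the labels, 1 higher and 11 lower in double, against 7.06% and 8.62% of genes. This limma fit held all 36 libraries, among them the day 0 libraries of X14 that went against their labels. The 1 higher was Pfkp (log2 0.43, SE 0.10, adjusted p = 0.00316), which is also the member with the largest fall over the days. The lower ones were Pfkl (-0.44), Pfkm (-0.60), Aldoc (-0.55), Eno1 (-0.30), Eno3, Pkm (-0.34), Ldha (-0.26), Ldhb (-0.48), Slc16a3 (-0.28), Pdk1 (-0.42) and Pdk2 (-0.81, close to the threshold at an adjusted p of 0.0498). They include 8 enzymes from phosphofructokinase to lactate dehydrogenase. The 8 naive markers had a median label difference of 0.46. The part of a difference between the libraries in stage, or in the number of X chromosomes, was not tested.

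In 4 members the label difference itself changed along the course, tested as the mean over days 5 to 8 minus that over days 1 to 4. With no fold limit 7.1% of genes passed, and with it 4.71%, among them Eno3 as the 1 member called. Slc2a3 averaged higher in double on days 1 to 4 and lower on days 5 to 8, at mean log2 differences of 0.47 and -0.40 in X14 and 0.67 and -0.16 in X18, a change of -0.85 (SE 0.17, adjusted p = 0.00228). Pdk1 was lower in double on days 1 to 4 in 8 of 8 pairs, by means of -0.78 in X14 and -0.69 in X18, and at -0.15 and -0.18 on days 5 to 8 (change 0.57, SE 0.13, adjusted p = 0.0067). Eno3 (change 1.27, SE 0.36, adjusted p = 0.0329) and Pfkm (0.54, SE 0.16, adjusted p = 0.0419) likewise had their larger label difference on the earlier days. The call of Eno3 was lost without replicate 2, 3 or 4, and under quantile normalization and on the log2 of RPM plus 1.

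**Figure D5:**
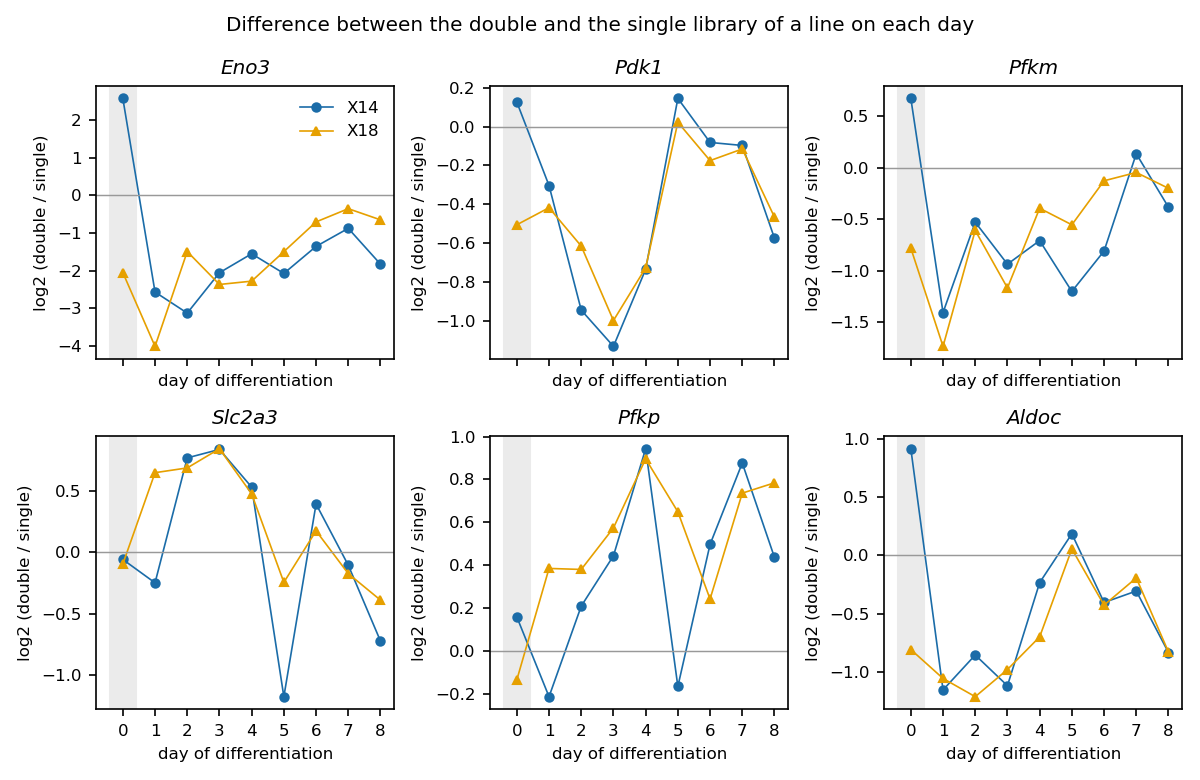
Log2 ratio of the double to the single library of a line against day, for Eno3, Pdk1, Pfkm, Slc2a3, Pfkp and Aldoc, with 1 point per line (X14, X18) and day. Day 0 is shaded because the X14 labels go against the other libraries there, and Eno3 lies below 0 at all 16 points of days 1 to 8.

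Between the lines no member was called by limma, with 7 at an unadjusted p under 0.05, and 0.0137% of genes were called (0.0205% with no fold limit). The smallest adjusted p was that of Slc16a1 (0.192), with a log2 difference of -0.24 in X18 against X14.

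Of the 12 members called higher on day 8, 10 were higher in 4 of 4 pairs of the same line and label, and 8 kept their call in every alternative setting run, namely Slc2a1, Slc2a3, Pfkl, Eno2, Slc16a3, Pfkfb3, Pdk1 and Pgm2. Of the 3 lower, Pfkp and Pgm1 did. Tpi1 lost its call without replicate 3.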

How the data were processed

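The authors deposited 1 table of log2 values for 25965 genes in 36 libraries of 75-base single-end reads. Per the study's methods, trim_galore trimmed the reads, tophat or hisat2 placed them on mm10 (TopHat2 2.0.12 in the submitters' processing notes), and SeqMonk quantified them per gene. The annotation version and strand setting are not given in the sources used here. The table is named log CPM, but its deposited values behave as log2 RPKM, with 0.9 read written for a gene without reads. With that rule 100% of values resolved to whole reads, within 0.05 read, and voom on these reads called 5162 genes on day 8.

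The deposited log2 values were tested in R 4.3.3 with limma 3.58.1 (lmFit, trended eBayes), all 36 libraries in 1 fit with day as the factor. Label and line were tested with day and each other as terms, and the libraries of all days were counted as independent. Isoenzyme ratios were tested with an exact two-sided permutation test over the 70 splits of 4 against 4 libraries. All limma tests were two-sided, with Benjamini-Hochberg adjustment over the 14612 genes tested. Scripts were tested on simulated data. Replicates of 1 number share a line and label and so pair across days, and their deviations from the day means correlated at a mean of 0.156 to 0.254. The members, lists and tests were chosen with earlier results of these data known. All members are accounted for, those called on day 4, day 8 or between labels with values per library, and other listed genes are named where called on day 8, with 4 X-linked genes for the label and Pfkfb1 added after its value was seen. Markers are named where called on day 8 or without reads. Alternatives were other scalings, filters, a pseudocount, voom, no fold limit, replicates left out, the replicate block and subsets of days, lines and labels, of which some label, line and step settings were chosen after seeing the data. Promoters came from RefSeq (GRCm38.p6).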

Additional observations from a re-analysis of the deposited data

Results flagged for a closer look

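The Pgm2 level of replicate 1 on day 8, 57.2 RPKM, stood apart from the other 3 libraries of that day, which lay between 70.02 and 72.03 RPKM. It was the 1 such case in 99 groups of 4 libraries checked. Chance gives about 1 in 20, so 1 case in 99 is fewer than chance alone would give.

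The label difference of 4 members changed between days 1 to 4 and days 5 to 8 by the test of the change itself (limma, adjusted p over all genes tested). The log2 changes were -0.85 for Slc2a3 (adjusted p = 0.00228), 0.54 for Pfkm (0.0419), 1.27 for Eno3 (0.0329) and 0.57 for Pdk1 (0.0067). Over the same days the difference between X-linked and autosomal genes narrowed between the labels, from means of 0.45 and -0.54 in double and single on days 1 to 4 to 0.14 and -0.41 on days 5 to 8, and its part in these 4 changes was not tested.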

How the results depend on the processing

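Of 217 recomputed counts of members, 188 stayed within 1.5 times the main value. The early counts depended most on the setting. The 5 members of day 2 became 3 without the filter, 3 with voom, 10 without a fold limit and 0 with only the 2 days in the fit, and 0 to 10 with a replicate left out. Day 3 gave 11 without a fold limit, 3 with only the 2 days in the fit and 4 to 9 with a replicate left out. With a replicate left out, day 4 gave 8 to 15, day 5 gave 8 to 17, and the step from day 3 to day 4 gave 0 to 1. Without a fold limit, day 8 against day 4 gave 12. The label comparison gave 12 without a fold limit, 0 in X14 alone, 2 on days 1 to 4 (Eno3 and Pdk2), and 0 to 2 with a replicate left out. The change of the label difference gave 0 after quantile normalization, 0 on the log2 of RPM plus 1, 4 without a fold limit and 0 to 1 with a replicate left out. With the replicate block the step from day 6 to day 7 gave 1 in place of 0, and Eno3 passed on day 8. Pairing by the block kept every other count of members within 1.5 times. The cause of these shifts was not tested. Of 474 recomputed changes of single members, 425 kept their side and direction, 26 lost and 10 gained a call, and 13 changed sign, none of them called. Scaling to the 75th percentile gave -0.19 for Aldoa, -0.11 for Pgam1 and -0.15 for Ldha, quantile normalization 0.16 for Dld, and voom -0.016 for Aldoa. With a replicate left out, the changes ran from -0.17 to 0.17 for Aldoa, -0.12 to 0.36 for Pgam1, -0.054 to 0.14 for Ldha, -0.17 to 0.068 for Dld, -0.38 to 0.38 for Hk2 and -0.22 to 0.089 for Dlat. All 70 recomputed isoenzyme ratios kept their direction, but with 3 libraries against 3 no exact p can be below 0.1. Depth limits the genes with few reads, Eno2, Pdk2, Pdk4, Pfkfb2, Pfkfb4 and Gapdh, whose changes cannot be sized here.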
